A study of Mus musculus with 8 samples.

Results

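The genes described here encode 10 subunits of the Polycomb repressive complexes in mouse embryonic stem (ES) cells, a cultured pluripotent cell type. They are *Ezh2*, *Eed*, *Suz12*, *Jarid2*, *Mtf2*, *Rnf2*, *Ring1*, *Pcgf6*, *Kdm2b* and *Cbx7*. They were set by name, with earlier results of these data known, and were found in a table of 43309 genes by matching Ensembl identifiers without version number to symbols. All 10 had at least 10 counts in at least 1 library and were tested.

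RNA was measured with the SMARTer Ultra Low RNA Kit, which reverse transcribes polyadenylated RNA of lysed cells and amplifies the cDNA. The 8 libraries formed 4 groups of 2, and all came from ES cells of strain J1 (129SV), grown without feeders on gelatin in medium with serum. Libraries labelled WT carried the *Zbtb24* genotype 2lox/+, in which 1 allele keeps a segment flanked by loxP sites. Libraries labelled KO carried 1lox/1lox, in which that segment has been removed from both alleles. ZBTB24 is a zinc finger protein that binds DNA. Each genotype was sampled with 1000 cells (10 ng of RNA, 10 PCR cycles) and with 100 cells (1 ng, 18 cycles), so cell number and PCR cycles changed together. The record describes replicates as separate clones of each genotype, but does not name the clone behind a library, and the same clones may have been used at both inputs. The p-values therefore measure the spread between these libraries.

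Total counts ran from 9666985 to 16686525 per library. The 7 ES cell markers, among them *Pou5f1* and *Nanog*, were counted in every library. Their summed levels were 5080 to 6663 cpm. Here and below, cpm is a count divided by the TMM-scaled total of its library, times a constant common to all libraries. At 1000 cells 5 of the 7 were called, 4 higher in KO and 1, *Pou5f1*, lower. At 100 cells 3 were called, all higher in KO. The log2 ratio of *Nanog* was 1.13 at 1000 cells and 0.58 at 100 cells. That of *Pou5f1* was -0.41 at 1000 cells and 0.46 at 100 cells. *Zbtb24* itself was higher in libraries labelled KO, at 39.3 ± 2.22 cpm against 15.3 ± 1.64 cpm in WT at 1000 cells and 38.5 ± 1.67 against 19.9 ± 0.577 at 100 cells (SD, n = 2). A count over the whole gene does not show whether a segment is missing, so genotypes are given as labelled throughout. The 100-cell libraries labelled KO stood apart in brain markers. The summed level of 7 glial markers was 231.4 and 236.3 cpm there and 10.6 to 23.2 cpm in the other 6 libraries, and all 7 were called higher against WT at 100 cells. At 1000 cells the glial sum was 22.5 and 23.2 cpm in KO and 12 and 11.9 cpm in WT, with *Mobp* called higher. Of the neuronal markers, *Snap25* and *Syt1* were called higher and *Nefl* and *Stmn2* lower there. *Aqp4*, an astrocyte marker, was at 0 in all 4 libraries of 1000 cells. Of 8 neuronal markers, 6 were called higher and *Stmn2* lower at 100 cells, and the sum of the 7 without *Stmn2* was 175.6 to 183 cpm in the 100-cell KO libraries against 25.5 to 36.3 cpm elsewhere. Summed levels of markers of primitive endoderm (6 genes, 22.1 to 33.1 cpm) and fibroblasts (6 genes, 1.73 to 5.97 cpm) were low in all libraries. Of 5 endoderm markers tested, 1 was called higher at each input. Of 3 fibroblast markers tested, 1 was called lower at 1000 cells and 1 higher at 100 cells. The fibroblast sums at 100 cells were 5.67 and 5.97 cpm in KO and 3.07 and 3.4 cpm in WT. Sums of 5 trophoblast markers were 3.33 and 3.58 cpm in KO against 13 and 16.4 cpm in WT at 100 cells. All 3 tested were called lower there. At 1000 cells the trophoblast sums were 7.46 to 10.2 cpm.

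Polycomb proteins keep developmental genes silent in ES cells until differentiation. Polycomb repressive complex 2 (PRC2) methylates lysine 27 of histone H3. EZH2 is its catalytic subunit, EED binds the methylated lysine and stimulates the enzyme, and SUZ12 is the scaffold that holds the core together. JARID2 and MTF2 are accessory subunits that bring PRC2 to CpG islands. Polycomb repressive complex 1 (PRC1) ubiquitylates histone H2A through RNF2 (also RING1B) or its paralog RING1. In canonical PRC1, CBX7 reads the PRC2 mark, and it is the main CBX protein of ES cells. In variant PRC1, KDM2B binds unmethylated CpG through a zinc finger, and PCGF6 is the subunit of a complex that also holds MGA, MAX and L3MBTL2.

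The promoters of these genes are themselves rich in CpG. RefSeq (GRCm38.p6) gave 15 windows for the 10 genes, each from 250 bases before to 50 after an annotated start. They held a median of 30 CpG, against 7 in all 32841 windows of the same length and 23 in 38 windows of other Polycomb genes. CpG counts were 17 to 49 in 14 of the 15 windows, and the exception was the second start of *Mtf2*, with 2. The windows below belong to the 3 genes that were called in the same direction at both inputs, and are printed 5′ to 3′ on the gene's strand with each CpG in capitals. They lie at chr1:151500942-151501241 (*Rnf2*, minus strand, 30 CpG), chr13:44730524-44730823 (*Jarid2*, first start, plus strand, 24 CpG), chr5:122989050-122989349 (*Kdm2b*, the start farthest upstream, minus strand, 28 CpG) and chr5:122900301-122900600 (*Kdm2b*, the start farthest downstream, minus strand, 49 CpG).
Rnf2: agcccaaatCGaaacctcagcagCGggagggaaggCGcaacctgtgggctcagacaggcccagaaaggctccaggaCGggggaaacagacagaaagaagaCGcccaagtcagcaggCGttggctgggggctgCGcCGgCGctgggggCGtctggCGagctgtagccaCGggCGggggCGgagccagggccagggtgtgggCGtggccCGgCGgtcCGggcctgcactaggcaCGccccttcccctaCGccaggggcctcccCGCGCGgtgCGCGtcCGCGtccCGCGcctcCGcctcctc
Jarid2: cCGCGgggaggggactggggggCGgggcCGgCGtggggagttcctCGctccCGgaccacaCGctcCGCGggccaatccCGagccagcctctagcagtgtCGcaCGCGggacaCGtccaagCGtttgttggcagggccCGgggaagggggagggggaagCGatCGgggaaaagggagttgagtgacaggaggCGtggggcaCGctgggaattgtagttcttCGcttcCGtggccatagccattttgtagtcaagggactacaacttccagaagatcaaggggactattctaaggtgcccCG
Kdm2b, upstream start: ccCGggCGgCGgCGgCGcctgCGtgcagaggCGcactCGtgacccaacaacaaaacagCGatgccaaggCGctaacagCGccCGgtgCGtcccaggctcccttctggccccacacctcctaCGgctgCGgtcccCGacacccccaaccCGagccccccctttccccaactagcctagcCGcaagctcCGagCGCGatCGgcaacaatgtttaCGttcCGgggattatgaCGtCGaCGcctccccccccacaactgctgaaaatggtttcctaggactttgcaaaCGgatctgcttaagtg
Kdm2b, downstream start: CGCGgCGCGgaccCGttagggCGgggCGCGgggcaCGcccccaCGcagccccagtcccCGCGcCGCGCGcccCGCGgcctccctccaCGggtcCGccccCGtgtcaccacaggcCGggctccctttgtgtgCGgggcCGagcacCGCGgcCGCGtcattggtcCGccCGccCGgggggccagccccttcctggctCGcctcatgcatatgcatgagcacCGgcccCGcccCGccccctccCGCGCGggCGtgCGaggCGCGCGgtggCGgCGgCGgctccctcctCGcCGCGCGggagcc
The downstream start of *Kdm2b* held more CpG than 99% of all windows. The motif CAGGACCT, which ZBTB24 binds, was searched on both strands (AGGTCCTG on the other) and was found in 0 of the 15 windows, in 0 of the 38 windows of other Polycomb genes and in 1.99% of all windows. The E-box CACGTG, which reads the same on both strands and is bound by MAX and its partners, was in 0 of the 15 windows, in 12 of the 38 (31.6%) and in 7.15% of all. A missing match says only that these letters were not within these 300 bases.

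To compare genes with each other, levels were divided by exon length (fragments per kilobase of merged exon, scaled by library as the cpm, FPKM). Merged exons can be much longer than the longest annotated transcript, 3828 against 2067 bases in *Eed* and 5698 against 4060 in *Mtf2*. For *Ezh2* these lengths were 6678 and 2787 bases. The order between genes thus depends on the length used, which the SD and the overlap of libraries do not cover. Levels by transcript length were not computed. In WT at 1000 cells, the accessory gene *Mtf2* was highest at 83.3 ± 0.101 FPKM, ahead of *Eed* at 77.9 ± 0.244 and *Suz12* at 54.1 ± 2.53 (SD, n = 2). *Rnf2* followed at 37.5 ± 0.189 FPKM, then *Jarid2* at 34.6 ± 1.10 and *Ezh2* at 23.1 ± 1.41. *Pcgf6* stood at 17.7 ± 0.570 FPKM, *Cbx7* at 5.24 ± 0.400 and *Kdm2b* at 4.19 ± 0.327. *Ring1* was last at 0.269 ± 0.0235 FPKM, so of the paired catalytic subunits of PRC1 nearly all measured RNA was *Rnf2*. The longest annotated transcript had 39.5% GC in *Rnf2* and 56.9% in *Ring1*, and the part of GC content in their levels was not tested. No neighbours in this order overlapped between their libraries in WT at 1000 cells. In the other groups, *Ezh2* and *Jarid2* overlapped in KO at 1000 cells, *Ezh2* and *Pcgf6* in WT at 100 cells, and *Eed* and *Mtf2* in KO at 100 cells. *Rnf2* ranked below *Suz12* in both WT groups and above it in both KO groups. *Mtf2* ranked above *Eed* in both groups of 1000 cells and below it in both groups of 100 cells.

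**Figure D1:**
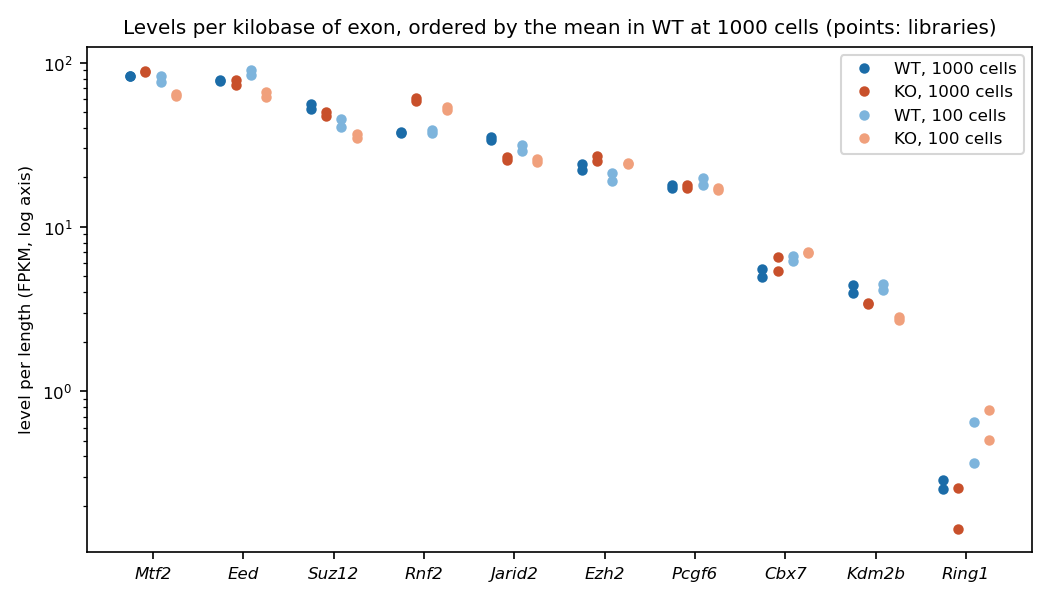
Level per length of each Polycomb gene (FPKM, log axis), ordered by the mean in WT at 1000 cells, with each library as a point and groups in colour. *Mtf2* and *Eed* sit near the top in every group, *Ring1* lies far below the rest, and *Rnf2* is higher in both KO groups than in both WT groups.

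Libraries labelled KO were then compared with those labelled WT at each input, to ask which Polycomb genes differed with the genotype of *Zbtb24*. At 1000 cells, 4 of the 10 genes passed an adjusted p of 0.05 in the quasi-likelihood test of edgeR, with *Ezh2* and *Rnf2* higher and *Jarid2* and *Kdm2b* lower. That share has to be read against a background of 41.5% of 16816 genes called in this comparison (20.9% higher, 20.6% lower), and of 57.7% among genes whose mean level reached 10 cpm, as it did for 9 of the 10. At 100 cells, 5 of 10 passed, with *Rnf2* higher and *Eed*, *Jarid2*, *Mtf2* and *Kdm2b* lower, against 34.2% of all genes (17.6% higher, 16.6% lower) and 38.5% of those at 10 cpm or more. *Rnf2*, *Jarid2* and *Kdm2b* were called at both inputs with the same sign, which held for 16.8% of all genes. Of the 10 genes, 8 had the same sign at both inputs and 4 were called at neither. Their median on the log2 scale was -0.02 at 1000 cells and -0.24 at 100 cells, and the median absolute ratio was 0.182 and 0.307, against 0.382 and 0.473 over all genes tested and 0.277 and 0.305 among those at 10 cpm or more. When counts were scaled to library size alone, the 1000-cell split over all genes moved to 2776 higher and 4290 lower from 3514 and 3465, and that of the 10 genes to 1 higher and 3 lower.

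**Figure D2:**
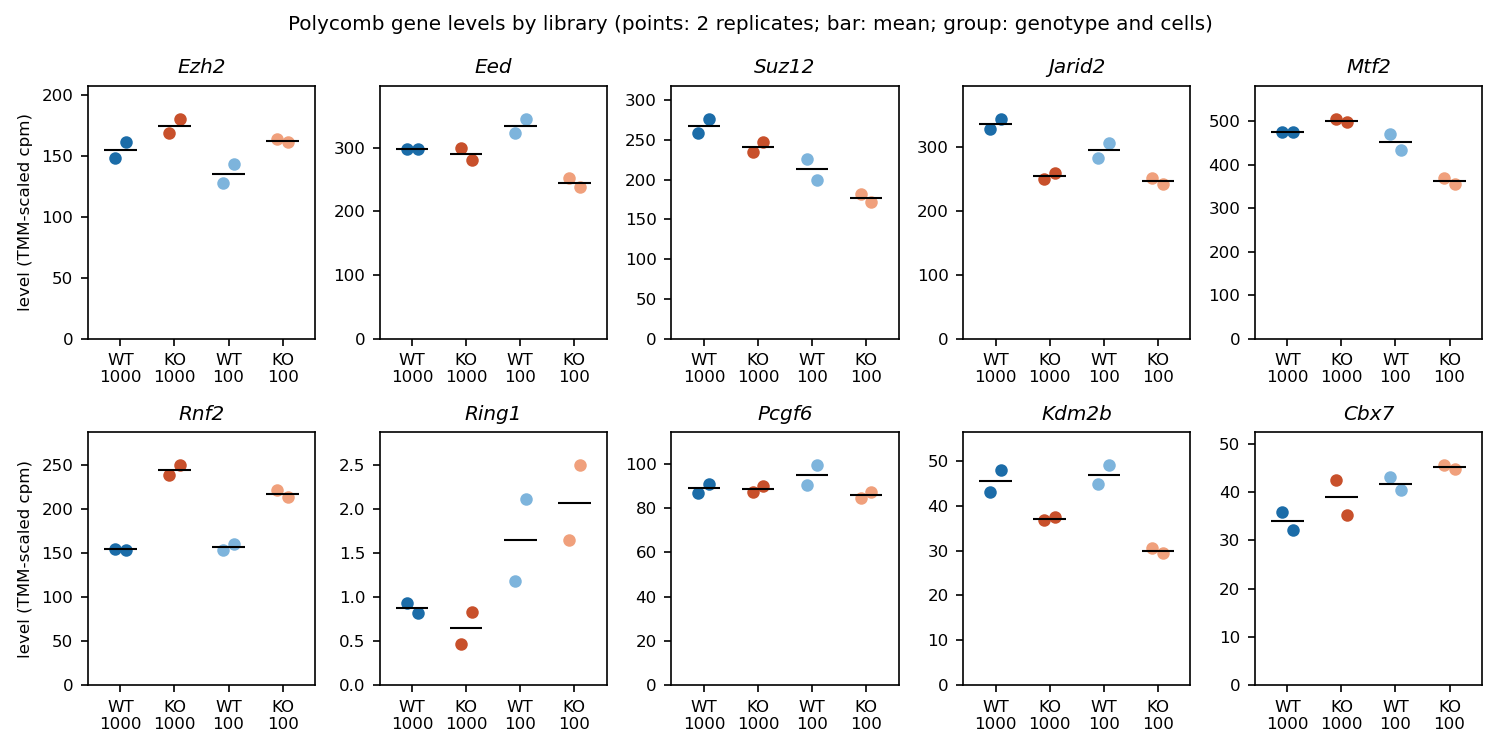
TMM-scaled level (cpm, axis from 0) of each of the 10 genes in the 8 libraries, with 2 points per group and a bar at their mean. *Rnf2* points of the KO groups lie above all WT points, while those of *Jarid2* and *Kdm2b* lie below all WT points.

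Among the 3 core genes of PRC2, none was called at both inputs. *Ezh2* had 147.9 and 161.2 cpm in WT and 168.9 and 180.2 cpm in KO at 1000 cells. In the 100-cell libraries, *Ezh2* stood at 127.3 and 143 cpm in WT and 163.9 and 161 cpm in KO. The KO libraries were thus above the WT libraries at each input, and the log2 ratios were 0.18 ± 0.07 (SE, adjusted p = 0.0335) at 1000 cells and 0.22 ± 0.11 (adjusted p = 0.131) at 100 cells. The call at 1000 cells had the highest adjusted p of the 4 made there. It was lost in 7 of 14 alternatives, among them library size alone (a ratio of 0.09), leaving out WT replicate 1 and leaving out KO replicate 2.

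*Eed* (chr7:89954654-89980983, GRCm38, minus strand), which encodes the subunit that binds the methylated lysine, had 298.8 and 297.5 cpm in WT and 299.4 and 281 cpm in KO at 1000 cells, so the groups overlapped there. At 100 cells it had 322.8 and 345.3 cpm in WT and 252.5 and 238 cpm in KO, with no overlap. The log2 ratio was -0.04 ± 0.06 at 1000 cells (95% interval -0.16 to 0.08, adjusted p = 0.635) and -0.49 ± 0.10 at 100 cells (adjusted p = 0.00620). *Suz12*, the scaffold, had 258.5 and 276.2 cpm in WT and 234.2 and 247.8 cpm in KO at 1000 cells, then 225.7 and 200 cpm in WT and 181.6 and 172.2 cpm in KO at 100 cells. All KO libraries lay below the WT libraries of the same input, yet both tests narrowly missed the threshold, at -0.15 ± 0.06 on the log2 scale (adjusted p = 0.0565) for 1000 cells and -0.31 ± 0.11 (adjusted p = 0.0528) for 100 cells. *Suz12* passed in 5 of 14 alternatives at 1000 cells, among them those without WT replicate 1 or KO replicate 2, and in 6 of 14 at 100 cells, among them those without either WT replicate. Opposite-strand exons of other genes overlapped 6.82% of the exon length of *Eed*, 3.6% of *Suz12* and 2.61% of *Ezh2*, and the counting ignored strand.

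The accessory gene *Jarid2* (chr13:44729474-44921643, GRCm38, plus strand) was lower in KO at both inputs. It had 328.1 and 343.3 cpm in WT and 248.7 and 258.6 cpm in KO at 1000 cells, and 282.9 and 305.6 cpm in WT against 250.4 and 241.5 cpm in KO at 100 cells. All 4 KO libraries lay below all 4 WT libraries. The log2 ratio was -0.40 ± 0.06 at 1000 cells (95% interval -0.53 to -0.28, adjusted p = 2.78e-06), and the call was kept in all 14 alternatives. At 100 cells it was -0.30 ± 0.10 (adjusted p = 0.0441), and this call was lost in 6 of 14 alternatives, DESeq2 among them. No annotated exon overlapped those of *Jarid2*.

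*Mtf2*, the other accessory gene (chr5:108065674-108109004, GRCm38, plus strand), had ratios of opposite sign at the inputs. At 1000 cells it had 474.1 and 474.9 cpm in WT and 505.3 and 497.7 cpm in KO, with a log2 ratio of 0.08 ± 0.06 (95% interval -0.04 to 0.20, adjusted p = 0.271). At 100 cells it had 470.1 and 434.1 cpm in WT and 368.7 and 355.5 cpm in KO, with a log2 ratio of -0.36 ± 0.11 (adjusted p = 0.0251). The KO libraries therefore sat above WT at one input and below it at the other. Exons of *Tmed5* on the opposite strand overlapped 6.93% of the exon length of *Mtf2*.

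*Rnf2*, the main catalytic gene of PRC1, had the highest ratio of the 10 genes at each input. It had 155.2 and 154.1 cpm in WT and 239.3 and 249.8 cpm in KO at 1000 cells, and 153.8 and 160 cpm in WT against 221.9 and 213.6 cpm in KO at 100 cells. The 4 WT libraries lay between 153.8 and 160 cpm, and every KO library was above them. The log2 ratio was 0.66 ± 0.06 at 1000 cells (1.58-fold, 95% interval 0.53 to 0.79, adjusted p = 9.82e-10) and 0.43 ± 0.10 at 100 cells (1.35-fold, adjusted p = 0.0101). The call at 1000 cells was kept in all 14 alternatives.

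Genes around *Rnf2* had similar ratios. *Rnf2* lies at chr1:151458004-151500955 (GRCm38, minus strand), and the 501 genes of chromosome 1 whose mean reached 10 cpm had a median log2 ratio of 0.55 at 1000 cells and 0.45 at 100 cells, with 78.8% and 55.9% of them called higher. The median of the 26 such genes within 5 Mb of *Rnf2* was 0.52 and 0.45. Relative to its chromosome, *Rnf2* was therefore 0.11 higher at 1000 cells and 0.02 lower at 100 cells on the log2 scale. The 9 other genes lie on chromosomes 5, 6, 7, 11, 13, 15, 17 and 19, whose medians were between -0.06 and 0.07 at 1000 cells and between -0.14 and 0.01 at 100 cells. Medians within 5 Mb of these 9 ranged more widely. They ran from -0.195 (*Ring1*) to 0.269 (*Jarid2*) at 1000 cells, and from -0.21 (*Eed*) to 0.225 (*Pcgf6*) at 100 cells. Around *Eed*, the median of 14 genes was 0.227 at 1000 cells and -0.21 at 100 cells. *Jarid2* on chromosome 13 was 0.47 below its chromosome's median at 1000 cells and 0.25 below it at 100 cells, and *Kdm2b* on chromosome 5 was 0.24 and 0.60 below. The part of the chromosome 1 shift in the ratio of *Rnf2* was not tested further, nor was that of local shifts in the ratios of the other genes.

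**Figure D3:**
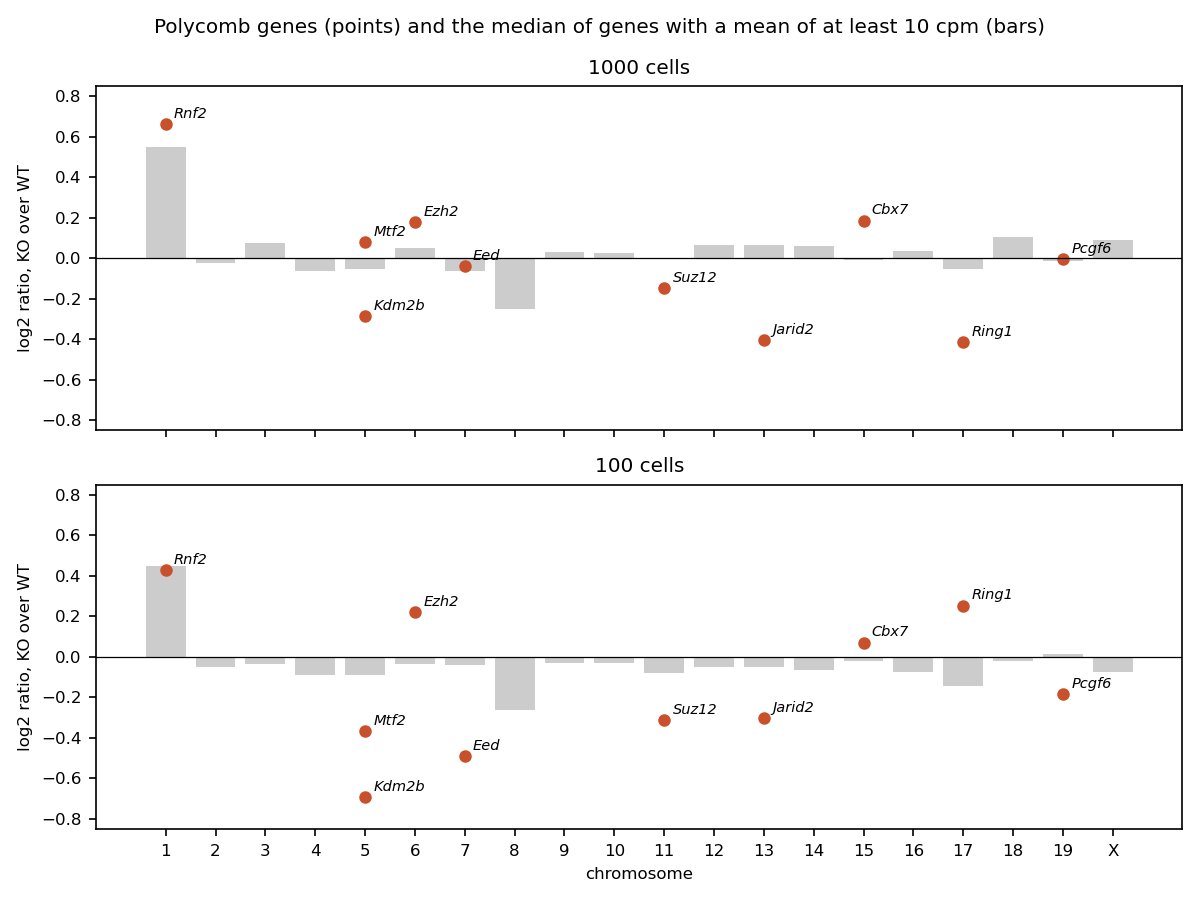
Log2 ratio of labelled KO over labelled WT for the 10 genes (points) beside the median of genes averaging 10 cpm or more on each chromosome (bars), at 1000 cells (top) and 100 cells (bottom). Only *Rnf2* sits on chromosome 1, where the bar reaches 0.55 and 0.45, and its point is 0.11 above and 0.02 below the top of that bar.

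*Ring1*, the paralog of *Rnf2*, had only 6 to 33 counts per library. It had 0.926 and 0.818 cpm in WT and 0.466 and 0.831 cpm in KO at 1000 cells, and 1.19 and 2.11 cpm in WT and 1.64 and 2.49 cpm in KO at 100 cells. The groups overlapped at both inputs, and the 95% intervals of the log2 ratio, -1.55 to 0.72 and -0.72 to 1.22, were too wide to show a difference of the size seen in *Rnf2*.

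In variant PRC1, *Kdm2b* (chr5:122870665-122989823, GRCm38, minus strand) was lower in KO at both inputs and had the lowest ratio of the 10 genes at 100 cells. It had 43 and 48 cpm in WT and 36.9 and 37.5 cpm in KO at 1000 cells, and 44.9 and 49 cpm in WT against 30.5 and 29.5 cpm in KO at 100 cells. All 4 KO libraries lay below all 4 WT libraries. The log2 ratio was -0.29 ± 0.09 at 1000 cells (adjusted p = 0.0131) and -0.69 ± 0.12 at 100 cells (95% interval -0.97 to -0.42, adjusted p = 0.00293). The call at 1000 cells was lost in 4 of 14 alternatives, among them DESeq2 (adjusted p = 0.0657) and the fits without WT replicate 2 or KO replicate 1. *Kdm2b* was also the gene with most shared sequence among the 10: opposite-strand exons of *A930024E05Rik* and *Rnf34* overlapped 7.6% of its exon length, *Gm44574* overlapped 1.14% on the same strand, and 12.5% of its 50-base windows occurred in another gene.

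*Pcgf6*, which defines a different variant complex, had 86.9 and 91 cpm in WT and 87.3 and 89.9 cpm in KO at 1000 cells, and 90.3 and 99.3 cpm in WT and 84.8 and 87.3 cpm in KO at 100 cells. The ranges overlapped at 1000 cells, where the log2 ratio was -0.005 ± 0.07 with an interval from -0.15 to 0.15, and at 100 cells the ratio was -0.18 ± 0.11 (adjusted p = 0.212). *Cbx7*, the reader in canonical PRC1, had 35.8 and 32.2 cpm in WT and 42.6 and 35.2 cpm in KO at 1000 cells, then 43 and 40.4 cpm in WT and 45.5 and 44.7 cpm in KO at 100 cells. Its log2 ratios were 0.18 ± 0.10 (adjusted p = 0.153) and 0.07 ± 0.12 (adjusted p = 0.676), and neither passed.

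**Figure D4:**
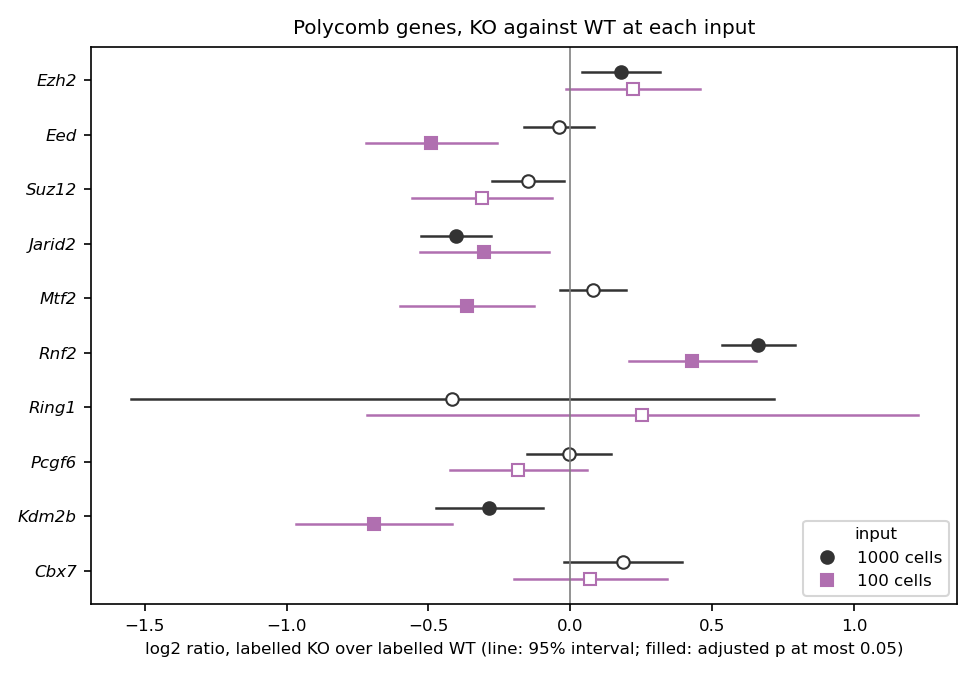
Log2 ratio of labelled KO over labelled WT (horizontal axis) for each gene at 1000 cells (circles) and 100 cells (squares), with its 95% interval as a line and filled symbols for genes called. *Rnf2* lies to the right of 0 and *Jarid2* and *Kdm2b* to the left at both inputs, while *Eed* and *Mtf2* are called only at 100 cells.

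The 5 calls at 100 cells were lost when either KO library of that input was left out. In such a fit the spread came from the WT pair alone. The ratios themselves stayed between -0.53 and -0.45 for *Eed*, 0.40 and 0.45 for *Rnf2*, and -0.71 and -0.67 for *Kdm2b* in these fits. Without WT replicate 1 or 2 of 100 cells, the ratio was -0.74 or -0.62 for *Kdm2b*, -0.30 or -0.41 for *Mtf2* and -0.21 or -0.39 for *Suz12*. Leaving out any library of 100 cells changed the number of calls over all genes as well. The replicates differed beyond counting noise in every group, with a chi-square per degree of freedom of 17.6 in WT at 100 cells against 1.99 to 3.28 in the other groups. The brain markers given above were raised in the same KO libraries of 100 cells, and the glial sum was higher in KO at 1000 cells too, and their part in the ratios of the 10 genes was not tested. In bulk samples, fewer cells of a type and less RNA per cell cannot be told apart.

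The interaction of genotype and input asks directly whether the ratio of KO to WT differed between 100 and 1000 cells. It was called for *Eed*, with a log2 difference of -0.41 ± 0.12 (adjusted p = 0.0320), and for *Mtf2*, with -0.40 ± 0.12 (adjusted p = 0.0316), 2 of the 10 genes against 16.3% of all genes. Each ratio was lower at 100 than at 1000 cells. Both calls were lost when any 1 library of 1000 cells or of KO at 100 cells was left out. *Kdm2b* had a difference of nearly the same size, -0.36 ± 0.15 (adjusted p = 0.116), and did not pass. For *Rnf2* the difference was -0.19 ± 0.12 (adjusted p = 0.283) with an interval from -0.44 to 0.06, and for *Jarid2* it was 0.15 ± 0.12 (adjusted p = 0.429).

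Inputs were also compared within each genotype, to ask how far 100 cells with 18 cycles gave the same levels as 1000 cells with 10. In WT, 0 of the 10 genes were called by edgeR, against 0.827% of all genes (139). The edgeR exact test, DESeq2 and limma-voom also called 0, and 1 gene, *Suz12*, had an unadjusted p of at most 0.05, with a log2 ratio of -0.34 ± 0.12. Without WT replicate 2 of 100 cells, 4 genes were called. In KO, 7 of 10 were called, against 52.1% of all genes (27.3% higher at 100 cells, 24.8% lower) and 61.9% of those at 10 cpm or more. *Ring1* (1.64 ± 0.42) and *Cbx7* (0.22 ± 0.09) were higher at 100 cells. *Ring1* rested on 6 and 12 counts at 1000 cells and 22 and 33 at 100 cells. The call of *Cbx7* was lost with library size alone, DESeq2, no filter beyond 1 count, thinning and the 1 fit of all 8 libraries. *Mtf2* (-0.47 ± 0.05), *Suz12* (-0.44 ± 0.06), *Kdm2b* (-0.31 ± 0.09), *Eed* (-0.24 ± 0.06) and *Rnf2* (-0.16 ± 0.05) were lower. Without KO replicate 2 of 100 cells, 3 were called. For each of the 10 genes the SE was larger in WT than in KO, so the 0 and 7 calls alone do not show a difference between genotypes. In WT, *Cbx7* had a ratio of 0.28 ± 0.15, near that in KO, while *Eed* had 0.15 ± 0.11, of opposite sign. The interaction above, called for *Eed* and *Mtf2*, tests this difference directly. The 2 genes called higher at 100 cells in KO had the most GC in their longest annotated transcript, 56.9% in *Ring1* and 56.4% in *Cbx7*. *Mtf2* (38.2%), *Rnf2* (39.5%) and *Suz12* (41.6%), all lower, had the least. GC content did not order the rest in the same way, since *Kdm2b*, with 52.6%, and *Eed*, with 47.8%, were lower too. The part of GC content, and of the brain markers raised in the same libraries, was not tested.

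The 10 genes were set beside 40 other genes of the Polycomb system, all of which were tested. At 1000 cells 15 of the 40 were called, of which 5 rose and 10 fell. At 100 cells the number was 12, of which 2 rose and 10 fell. Over all genes, 41.5% and 34.2% were called in these comparisons. Called genes were 2 of 7 in PRC2, 3 of 10 in canonical PRC1, 8 of 15 in variant PRC1 and 1 of 6 in the PR-DUB deubiquitinase at 1000 cells, and 1, 3, 4 and 4 of them at 100 cells. Of the H3K27 demethylase genes *Kdm6a* and *Kdm6b*, 1 was called at 1000 cells and 0 at 100 cells. The median log2 ratio of the 40 was -0.05 at 1000 cells and -0.04 at 100 cells.

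The same sign was called at both inputs for 5 of the 40 genes, against 16.8% of all genes. All 5 were lower in KO. Their KO and WT libraries did not overlap at either input, which was a condition for naming them. The shares of all genes without such overlap, or called lower at both inputs, were not counted. *Epop*, a PRC2 accessory gene of ES cells, fell from 92.2 and 87.6 cpm to 25.8 and 22.3 cpm at 1000 cells, and from 84.8 and 127.4 cpm to 53.4 and 55.8 cpm at 100 cells. Its log2 ratios were -1.91 ± 0.09 (adjusted p = 3.595e-16) and -1.004 ± 0.17 (adjusted p = 0.00231), larger in size than that of any of the 10 genes. *L3mbtl2*, a partner of *Pcgf6*, fell from 86.6 and 77.7 cpm to 40.4 and 36.8 cpm at 1000 cells, with log2 ratios of -1.10 ± 0.09 and, at 100 cells, -0.49 ± 0.12. *Mga*, the scaffold of the same complex, had ratios of -0.46 ± 0.06 and -0.36 ± 0.11, and *Pcgf6* itself was called at neither input. *Phc1*, which polymerises canonical PRC1, had -0.32 ± 0.06 and -0.31 ± 0.10. *Bap1*, the catalytic subunit of PR-DUB, had -0.27 ± 0.09 and -0.75 ± 0.15. By the edgeR interaction test, the ratios of *Epop* (0.94 ± 0.21, adjusted p = 0.0103) and *L3mbtl2* (0.65 ± 0.15, adjusted p = 0.0117) differed between inputs. Both were smaller in size at 100 cells. The interaction was not called for *Mga*, *Phc1* or *Bap1*. It was called for 5 of the 40 genes, against 16.3% of all genes. Exons of *Chadl* on the opposite strand overlapped 17.2% of the exon length of *L3mbtl2*. The sign differed between inputs for 2 called genes, *Scmh1* (-0.41 at 1000 cells, 0.69 at 100 cells) and *Pcgf1* (0.40 and -0.56), which were named after their values were seen.

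**Figure D5:**
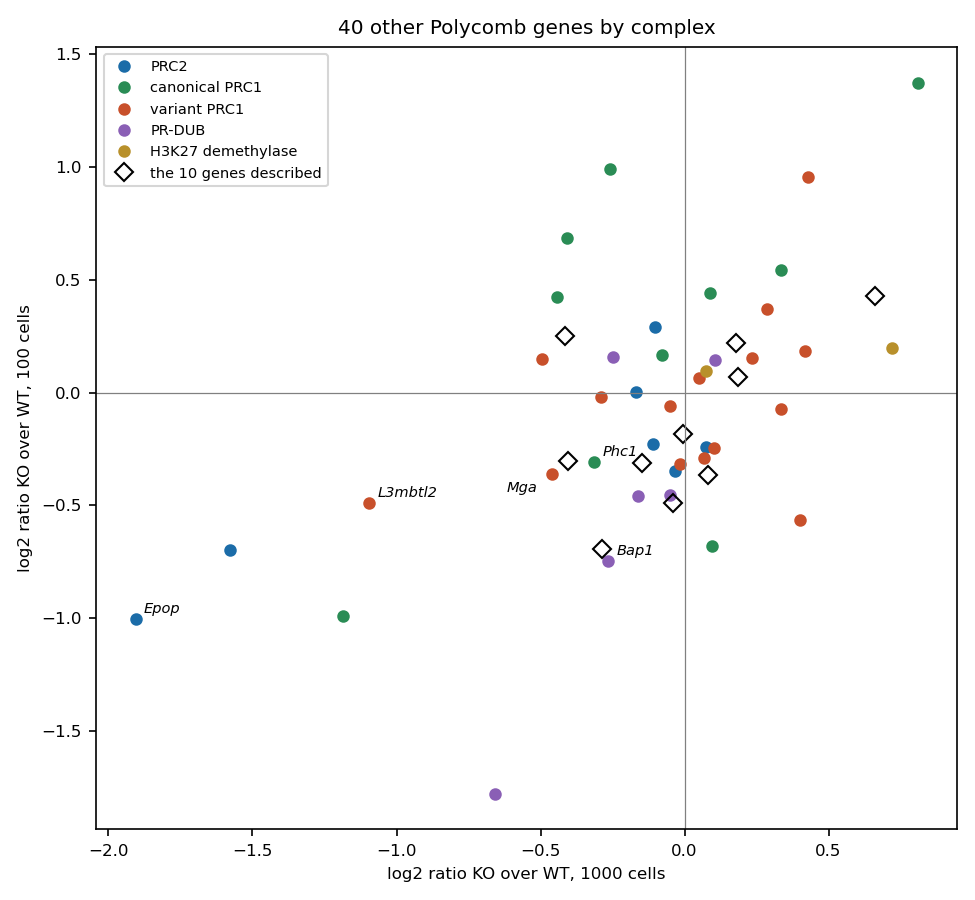
Log2 ratio of labelled KO over labelled WT at 1000 cells (horizontal axis) and 100 cells (vertical axis) for 40 other Polycomb genes, coloured by complex, with the 10 genes as open diamonds. Named points were called lower at both inputs, and *Epop* (-1.91, -1.004) lies farthest from 0 among them.

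Similarity of pattern was measured as the root mean square difference of log2(cpm + 0.5), centred per gene, over the 8 libraries, among the other 49 Polycomb genes. Values were not scaled per gene, so this difference also depends on how much each gene varied, count noise included. Given with the nearest gene of each, the smallest differences were those of *Pcgf6* with *Rbbp7* (0.07), *Mtf2* with *Pcgf3* (0.07), *Ezh2* with *Max* (0.09), *Eed* with *Rybp* (0.10) and *Suz12* with *Mtf2* (0.11). *Jarid2* was nearest *Rbbp7* (0.12), *Cbx7* nearest *Foxk2* (0.13) and *Kdm2b* nearest *Eed* (0.13). *Rnf2* was less close to its nearest gene, *Yaf2* (0.16), and *Ring1* least of all (0.38 to *Scmh1*). *Epop* was the farthest gene for 8 of the 10.

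Developmental genes that Polycomb proteins are known to bind were mostly at low counts. Of 18 listed, 10 could be tested, and 2 of these were called at 1000 cells, both lower in KO, and 5 at 100 cells, 2 higher and 3 lower, against 41.5% and 34.2% of all genes (20.6% and 16.6% lower). *Cdkn2a*, which encodes cell cycle inhibitors, was called lower at both inputs. It had 22 and 11 counts in WT and 3 and 2 in KO at 1000 cells, and 6 and 17 counts in WT against 0 and 0 in KO at 100 cells. At 100 cells, *Hand1* (7 and 8 counts in WT, 1 and 0 in KO) was also called lower, and the endoderm gene *Gata6* (13 and 5 counts in WT, 43 and 51 in KO) was called higher. These 3 genes were named after their values were seen.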

How the data were processed

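RNA was sequenced from 8 libraries of mouse ES cells. Per the labels and the methods, the authors removed ribosomal reads (Bowtie2 2.1.0), mapped the rest to mm10 with TopHat2 2.0.10 and counted fragments per GENCODE M4 gene with HTSeq 0.6.1, without strand and without fragments matching several genes. Overlapping genes can thus lose or share fragments. The deposited table holds raw counts. Removal of PCR duplicates was not given in the sources used here, so counting error alone understates the noise.

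Genotype, cell number and replicate came from the labels. The 16816 genes that reached 10 counts in any library entered edgeR 4.0.16 (R 4.3.3), whose quasi-likelihood F test was run with TMM scaling, Benjamini-Hochberg adjustment over all genes and a threshold of 0.05. Genotype was fitted within each input (4 libraries), input within each genotype (4 libraries), and the interaction on all 8. Tests were two-sided. Levels are TMM-scaled cpm, or FPKM where divided by exon length. Intervals are 95%. Positions, lengths and exon overlaps came from GENCODE M21 (GRCm38), which held 42425 of 43309 identifiers (97.96%), and overlaps in M4 were not analysed here. Total counts of 9666985 to 16686525 put 3 counts at 0.174 to 0.297 cpm.

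Alternatives were DESeq2 size factors, library size alone, DESeq2 1.42.0, limma-voom 3.58.1, the edgeR exact test, 2 other filters, thinning to the smallest total, 1 fit of all libraries, replicate blocks and leaving out each library. The scripts were tested on simulated data. The 10 genes and all lists were chosen with earlier results of these data known. *Scmh1*, *Pcgf1* and target genes were named after their values were seen. Further Polycomb genes were named when called at both inputs with the same sign, at a mean of at least 10 cpm and without overlap of KO and WT libraries, at most 6 per direction and list. Some of the target genes called are not reported here by name.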

Additional observations from a re-analysis of the deposited data

Results flagged for a closer look

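The ratio of KO to WT differed between inputs, by the interaction test of edgeR, for 2 of the 10 genes, against 16.3% of all genes and 20.7% of those at 10 cpm or more. For *Eed* the log2 difference was -0.41, with a ratio of -0.04 at 1000 cells and -0.49 at 100 cells. For *Mtf2* it was -0.40, with ratios of 0.08 and -0.36. Medians of genes within 5 Mb, at a mean of 10 cpm or more, were 0.227 at 1000 cells and -0.21 at 100 cells around *Eed* (14 genes). Around *Mtf2* (46 genes) they were 0.011 and -0.085. The part of such neighbours in the 2 differences was not tested. Each call was lost when any 1 library of 1000 cells or of KO at 100 cells was left out.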

How the results depend on the processing

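With 2 libraries per group, the counts of calls moved more than the ratios. No member changed sign where it was called, and of 724 tests of single genes under an alternative, 649 stayed on their side of the threshold, 52 lost a call and 23 gained one. Among the 10 genes at 1000 cells, 4 were called, 2 with DESeq2, 2 in 1 fit of all 8 libraries, and 3 to 5 when 1 library was left out. At 100 cells, 5 were called, 3 with no filter beyond 1 count, and 0 to 8 when 1 library was left out. The interaction was called for 2, and for 0 to 3 with 1 library left out. For 100 against 1000 cells, the leave-one-out range was 0 to 4 in WT (0 with all libraries) and 3 to 8 in KO (7). Calls of *Jarid2* at 100 cells were also lost with DESeq2, both other filters and thinning, and that of *Mtf2* without a filter. Over all genes, leaving out 1 library gave 2066 to 9551 calls at 100 cells, 727 to 5633 for the interaction and 6 to 2631 for input in WT, where 139 calls became 79 with library size alone, 212 with DESeq2, 442 with the exact test, 463 without a filter, 14 after thinning and 676 in 1 fit. Genotype at 1000 cells had 6979 calls over all genes, and 4760 with DESeq2. Input in KO had 5641 calls with DESeq2. Of the 40 other Polycomb genes, 6 were called at 100 cells without a filter and 1 to 22 with 1 library left out. Target calls fell to 1 at 1000 cells with DESeq2, and to 1 at each input when 10 counts were asked of every library, and were 3 to 6 at 100 cells with 1 library left out.

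Replicate numbers marked no stated clone or day, and there were only 2 pairs per comparison. The differences between replicates correlated at 0.15 (1000 cells) and 0.17 (100 cells) between genotypes, and at -0.12 in WT and -0.04 in KO between inputs. With the replicate number as a block, 5 of the 10 genes were called at 1000 cells, where calls over all genes rose from 6979 to 7426. The block gave 6 of the 10 at 100 cells, 2 for the interaction, 0 for input in WT (285 over all genes) and 7 in KO. Numbers over all genes with the block are not given here for 100 cells, the interaction and input in KO. *Suz12* was the gene gained at both inputs (adjusted p = 0.0174 and 0.0378). With crossed numbers, added after the data were seen, input in WT gave 0 of the 10 and 512 over all genes.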
